A study of Mus musculus with 6 samples.

Results

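The genes described here are 47 named genes of the acrosome, of the perinuclear theca and of sperm-egg binding and fusion, and were chosen by the known function of their proteins. Of these, 46 were matched by symbol to the deposited table of 55536 genes, and all 46 passed the filter on low counts, which left 20744 genes for testing. The symbol Pdilp matched no gene or synonym in the annotation. Those matched were 17 acrosomal enzymes and matrix proteins, 11 factors of sperm-egg binding and fusion, 9 genes of the acrosomal membrane and of acrosome biogenesis, 7 genes of the perinuclear theca and sperm head cytoskeleton, and 2 chaperones of fertilization proteins.

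RNA was sequenced from whole testes of 4-month-old mice, all from inbred FVB/NJ lines kept as homozygotes. WT mice were FVB/NJ. P2KO mice (Padi2 single KO) carried a gene trap in which LacZ and neomycin sequence stood in place of the coding part of exon 1 of Padi2. DKO mice (Padi2/Padi4 double KO) carried the same trap together with a CRISPR deletion of 4 nucleotides in exon 1 of Padi4. The deletion was made in P2KO embryos and the DKO mice came from 1 edited line, so that Padi4 loss without Padi2 loss was not measured and line and genotype cannot be told apart. Each genotype had 2 mice and 2 libraries, and the p-values given here measure the spread between such mice.

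The acrosome is a secretory vesicle that is built from the Golgi apparatus in round spermatids and spreads as a cap over the sperm nucleus. On contact with the egg coat it releases hyaluronidases and proteases, and its inner membrane and equatorial segment then expose the proteins through which sperm bind and fuse with the oocyte. The perinuclear theca is the cytoskeletal layer that holds the acrosome to the nucleus. Padi2 and Padi4 encode peptidylarginine deiminases, enzymes that convert arginine in proteins to citrulline, and the comparisons below ask how the level of these mRNAs differed between testes with and without them.

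Total counts ran from 21939393 to 27306679 per library. Padi4 had normalised read counts of 22.5 and 39.8 in WT, 9.76 and 10.6 in P2KO and 3.83 and 4.24 in DKO testes, and was lower in DKO than in WT (log2 fold change -2.94, adjusted p = 2.78e-04 in edgeR's quasi-likelihood test after Benjamini-Hochberg adjustment). In P2KO the Padi4 difference from WT was -1.63 with an adjusted p of 0.0959. Padi2 had 52.9 and 59.2 in WT, 88.7 and 58.6 in P2KO and 56.5 and 88.0 in DKO, so that its count was not lower in the libraries labelled P2KO and DKO. In other tissues the paper found no Padi2 transcript (RT-PCR, salivary gland) and no PAD2 protein (Western blot, spleen) in either line. The testis counts do not show that loss. Counts per gene do not tell which exons the reads came from, so they do not check the labels, and the cause of the mismatch was not tested. Summed CPM (counts scaled to library size) of 9 round spermatid markers that are not on the list ran from 2168 to 2330. For 11 elongating spermatid markers it was 26174 and 26463 in WT, 23127 and 25005 in P2KO and 25382 and 24637 in DKO, with both WT libraries highest. Markers of the epididymis summed to between 0.28 and 0.64, and 1 of the 8 was at 0 in every library.

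The acrosome and fusion genes were well covered. Their counts ran from 309 to 78441 reads per library, and together they took between 1.197% and 1.2193% of the reads of each library. Levels per length spanned a range of 251-fold, from 2.40 to 603 FPKM (fragments per kilobase of merged exons, scaled to library size), with a median of 75.5; 17 genes lay above 100 FPKM and 4 below 10 FPKM. Mice of a genotype differed from each other by a median of 0.068 (WT), 0.0883 (P2KO) and 0.0435 (DKO) on the log2 scale. The widest gaps between mice were those of Atp8b3 in WT (0.244), Izumo1 in P2KO (0.257) and Tmem190 in DKO (0.187).

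**Figure D1:**
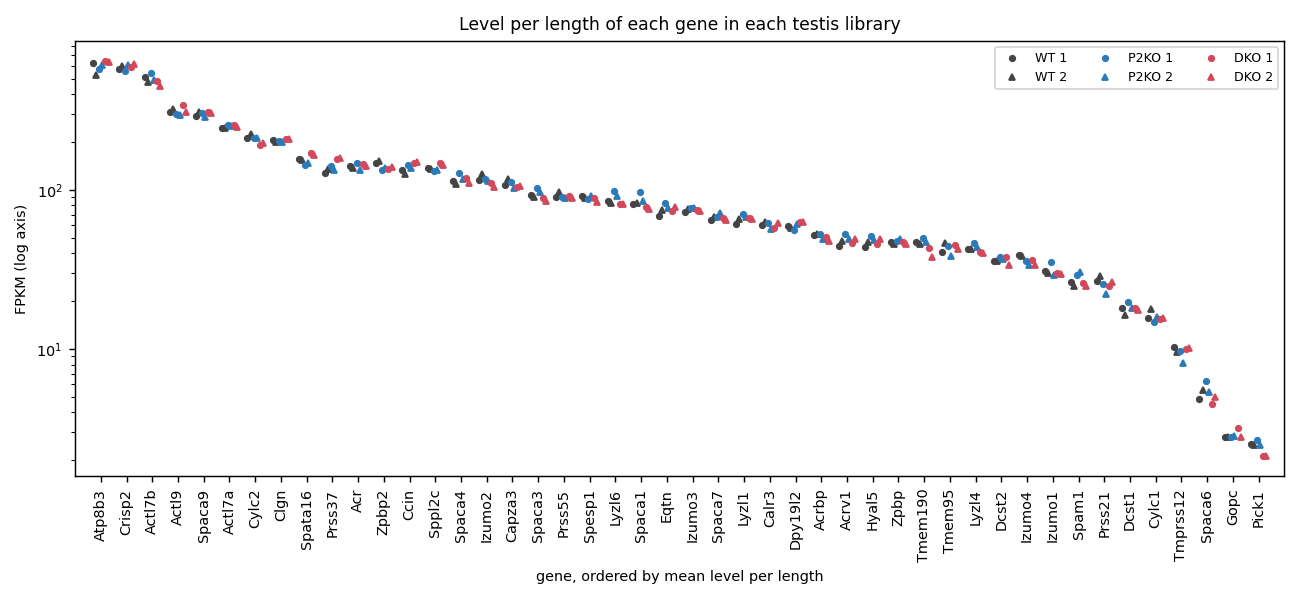
Level per length in FPKM (log axis) of each of the 46 genes in each of the 6 libraries, ordered by mean level; colours mark the genotype, circles mouse 1 and triangles mouse 2. Genes differ from each other by up to 251-fold, and the 6 libraries of a gene lie close together.

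The most abundant messages were those of 3 genes. Atp8b3, a phospholipid flippase of the acrosomal membrane, stood at 574 ± 68.5 FPKM in WT, 591 ± 27.6 in P2KO and 642 ± 10.9 in DKO (SD, n = 2). Crisp2, a cysteine-rich secretory protein of the acrosome and tail, stood at 586 ± 20.7, 583 ± 35.0 and 606 ± 23.1 FPKM. Actl7b, an actin-like protein of spermatids, stood at 496 ± 26.5, 516 ± 32.9 and 467 ± 21.9 FPKM. The genotypes overlapped in all these sets except that both DKO libraries of Atp8b3 lay above the other 4 and both DKO libraries of Actl7b lay below those of P2KO.

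The 3 lowest levels per length were those of genes with long merged exons. Tmprss12, the next lowest at a mean of 9.66 FPKM, has only 1635 nucleotides. Pick1, a vesicle trafficking adaptor, was at 2.51 ± 0.0216 FPKM in WT, 2.58 ± 0.139 in P2KO and 2.13 ± 0.0114 in DKO, over a merged exon length of 6573 nucleotides. Gopc, a Golgi protein of acrosome formation, was at 2.80 ± 0.0136, 2.82 ± 0.048 and 2.99 ± 0.257 FPKM over 10958 nucleotides. Spaca6, which is needed for fusion, was at 5.17 ± 0.453, 5.85 ± 0.696 and 4.77 ± 0.326 FPKM over 7067 nucleotides. Merged length includes every annotated transcript, so the level per length of these genes depends on which transcripts the testis makes.

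Across the 3 comparisons the differences were small in size. In P2KO against WT the log2 fold changes ran from -0.22 to 0.21 with a median of 0.043. In DKO against WT they ran from -0.24 to 0.25 with a median of -0.0080, and in DKO against P2KO from -0.30 to 0.21 with a median of -0.046. The medians over all tested genes were 0.0035, -0.0048 and -0.0028. With single libraries left out the listed medians ran from 0.020 (without WT mouse 1) to 0.041 in P2KO against WT, from -0.036 (without DKO mouse 1) to 0.0060 (without DKO mouse 2) in DKO against WT, and from -0.047 to -0.015 (without P2KO mouse 1) in DKO against P2KO. With the length offset the medians were 0.032 in DKO against WT and -0.0020 in DKO against P2KO. Every one of the 46 intervals of 95% lay within 0.5 either way on the log2 scale in each comparison, the most extreme bound being -0.49 for Pick1 in DKO against P2KO. Changes under 0.1 in size were found for 29, 32 and 27 of the 46 genes, against 47.3%, 42% and 43.9% of all tested genes. The 46 genes had at least 309 reads in every library, while the filter for all genes used a minimum count of 10. The sets were not matched for read depth, so these shares do not show that the listed genes were steadier than others. In whole testis, fewer cells of a type and less RNA per cell cannot be told apart.

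**Figure D2:**
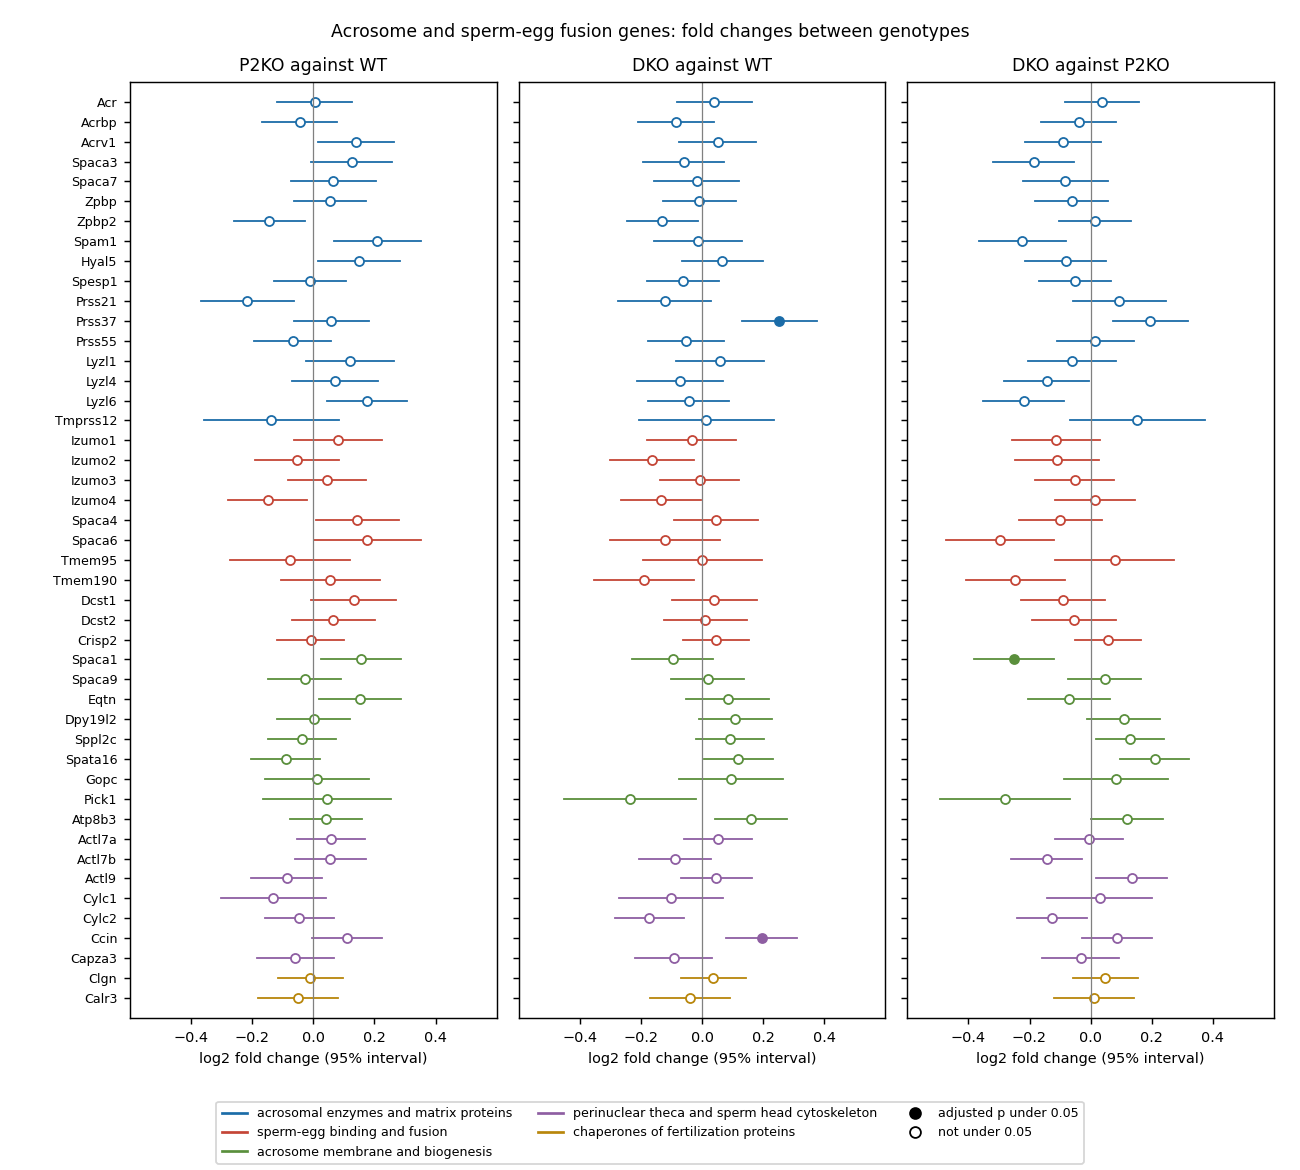
Log2 fold change of each of the 46 genes in the 3 comparisons, with lines for the 95% interval of edgeR's quasi-likelihood fit; colours mark the role and filled points an adjusted p under 0.05. The 3 filled points are Prss37 and Ccin in DKO against WT and Spaca1 in DKO against P2KO, and every interval lies within 0.5 of 0.

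In P2KO against WT, edgeR's quasi-likelihood test called 0 of the 46 genes at an adjusted p under 0.05, and 0.198% of all tested genes higher and 0.14% lower. At an unadjusted p under 0.05 there were 11 of the 46, of which 8 were higher and 3 lower, beside 8.57% of all tested genes, and DESeq2 also called 0. The 2 P2KO libraries both lay above the 2 WT libraries for 15 genes and both below for 7, while 18.7% and 18.8% of all tested genes did so.

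In DKO against WT, 2 listed genes were called higher and 0 lower, beside 2.06% and 1.16% of all tested genes. Under upper-quartile scaling the listed calls were 1 higher (Prss37) and 1 lower (Cylc2), and the calls over all genes went from 428 higher and 240 lower to 367 higher and 322 lower; with the length offset they were 291 and 241. At an unadjusted p under 0.05 there were 10 of the 46, with 4 higher and 6 lower, beside 14.1% of all tested genes. DKO libraries lay wholly above WT for 8 genes and wholly below for 13, against 21.6% and 21.6% of all tested genes.

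In DKO against P2KO, 0 listed genes were called higher and 1 lower, beside 0.607% and 0.598% of all tested genes, and the unadjusted test gave 15 of the 46, with 5 higher and 10 lower, beside 11.8% of all tested genes. The listed calls were 2 higher and 4 lower with edgeR on the 2 genotypes or without either WT mouse, 2 higher and 1 lower with the length offset, 1 higher and 0 lower with DESeq2 on the 6 libraries, and 0 with the replicate block or without P2KO mouse 1, DKO mouse 1 or DKO mouse 2. DKO libraries lay wholly above P2KO for 9 genes and wholly below for 16, against 21.1% and 21.6% of all tested genes. The WT libraries serve in both comparisons with WT, the P2KO and DKO libraries in 2 comparisons each, and the 3 sets of values are therefore not independent.

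**Figure D3:**
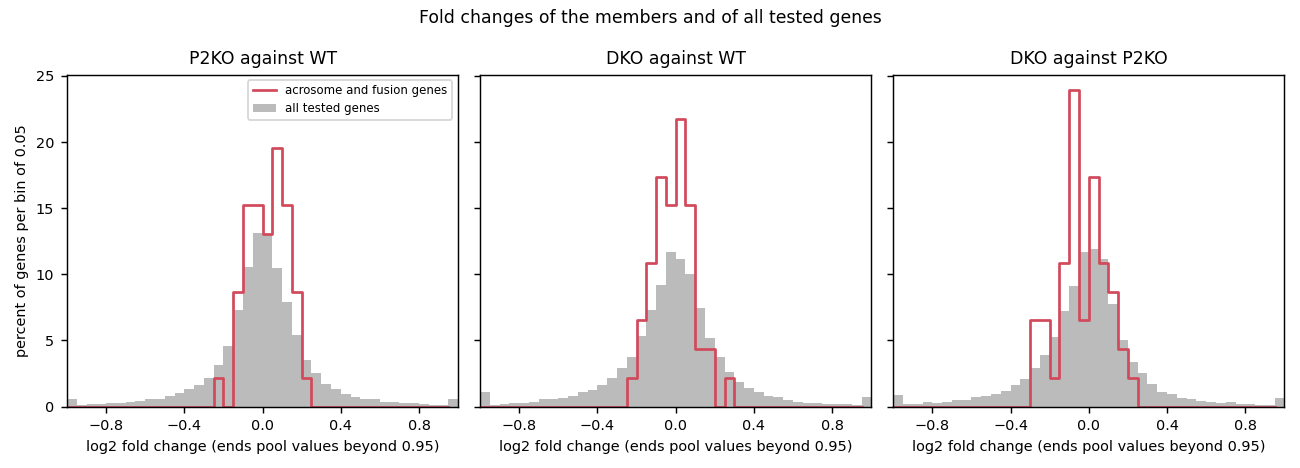
Distribution of log2 fold changes in bins of 0.05 for all 20744 tested genes (grey bars) and for the 46 acrosome and fusion genes (red line), as percent of each set; the end bins pool all values beyond 0.95. The values of the 46 genes run from -0.30 to 0.25 over the 3 comparisons, while the grey bars reach both ends. The sets were not matched for read depth.

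Prss37 (chr6:40514824-40519508 on GRCm38, minus strand) was the listed gene with the largest rise in DKO against WT. It encodes a serine protease homologue of spermatids that is known to be needed for the processing of ADAM3 and for sperm passage into the oviduct. Its normalised read counts were 3542 and 3726 in WT, 3867 and 3700.5 in P2KO, and 4287 and 4379.6 in DKO testes. Both DKO libraries lay above all 4 others, and the WT and P2KO libraries overlapped. Levels were 132 ± 4.73 FPKM in WT, 137 ± 4.28 in P2KO and 157 ± 2.39 in DKO. DKO was 1.19-fold WT (log2 fold change 0.25 ± 0.0602 SE, 95% interval 0.13 to 0.38, adjusted p = 0.00998 in edgeR's quasi-likelihood test after Benjamini-Hochberg adjustment). Against P2KO the difference was 0.20 with an adjusted p of 0.115, and it was called in 6 of 18 alternative analyses. P2KO against WT gave 0.058 with an adjusted p of 0.859. The call in DKO against WT was made in 16 of 18 alternative analyses and was lost without DKO mouse 1 (adjusted p = 0.086) and without DKO mouse 2 (adjusted p = 0.173).

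Ccin (chr4:43983483-43985423, plus strand) was the other gene called in DKO against WT. It encodes calicin, a protein of the calyx of the perinuclear theca, and has a single exon. Its normalised read counts were 6323 and 6037 in WT, 6801 and 6534 in P2KO, and 7032 and 7122 in DKO. Each DKO library exceeded every other library, and both P2KO libraries exceeded both WT libraries. DKO was 1.15-fold WT (log2 fold change 0.20 ± 0.0571 SE, 95% interval 0.080 to 0.31, adjusted p = 0.0497). For P2KO against WT the value was 0.11 (adjusted p = 0.601) and for DKO against P2KO it was 0.086 (adjusted p = 0.591). The call stood at the edge of the threshold: it was made in 8 of 17 alternatives, was lost when any of WT mouse 2, P2KO mouse 1, P2KO mouse 2, DKO mouse 1 or DKO mouse 2 was left out (adjusted p = 0.261, 0.079, 0.0595, 0.227 and 0.328), and had an adjusted p of 0.0805 under upper-quartile scaling.

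Spaca1 (chr4:34024874-34050191, minus strand), a protein of the inner acrosomal membrane without which the acrosome does not form properly, was the gene called in DKO against P2KO. Normalised read counts were 3177 and 3262 in WT, 3821 and 3348 in P2KO, and 3043 and 2983 in DKO. The DKO pair lay lowest and P2KO mouse 1 lay furthest above the rest. DKO was 0.840 times P2KO (log2 fold change -0.25 ± 0.0647 SE, 95% interval -0.38 to -0.12, adjusted p = 0.0402), while P2KO against WT was 0.16 (adjusted p = 0.475) and DKO against WT was -0.096 (adjusted p = 0.563). Without P2KO mouse 1 the difference was -0.15 with an adjusted p of 0.614. It was also lost without DKO mouse 1 (adjusted p = 0.215) and without DKO mouse 2 (adjusted p = 0.399), under DESeq2 on the 6 libraries (adjusted p = 0.0643), and with the replicate block, the length offset or both together (adjusted p = 0.0712, 0.0588 and 0.0579), and was made in 10 of 17 alternatives. Spaca1 is itself a marker of round spermatids, and of the 9 other such markers that are not on the list 0 were higher and 4 lower in DKO against P2KO at an unadjusted p under 0.05 (0 and 3 in DKO against WT), beside 11.8% (14.1%) of all tested genes. Their median was -0.063 in DKO against P2KO, -0.13 without DKO mouse 1 and -0.0064 without DKO mouse 2, and their part in the Spaca1 value was not tested.

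**Figure D4:**
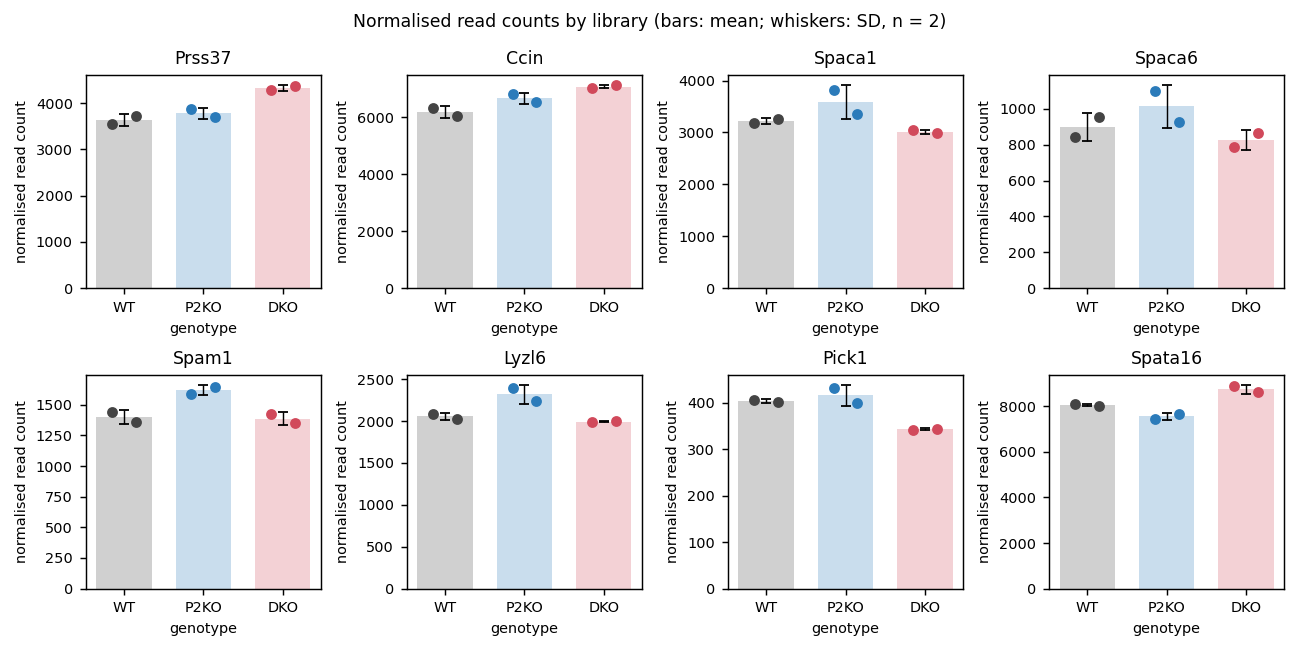
Normalised read counts of 8 genes by genotype; points are the 2 libraries, bars their mean and whiskers the SD (n = 2), on axes that start at 0. By their means Prss37, Ccin and Spata16 are highest in DKO, Spaca1, Spaca6 and Pick1 lowest in DKO, and Spam1 and Lyzl6 highest in P2KO.

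Sequence before the start is shown for the 3 called genes, to set beside one another, and for Izumo1, the one other listed gene with the same full motif as Ccin. These are RefSeq promoters on GRCm38.p6, written 5′ to 3′ on the strand of the gene, and capitals mark TGACG and TGACGTCA, the core and the palindrome of the cyclic AMP response element, which the spermatid factor CREM is known to bind. Bases that GENCODE places inside the transcript were left out, which were 21 bases for Ccin and 126 for Spaca1.
Prss37, chr6:40519509-40519758, minus strand: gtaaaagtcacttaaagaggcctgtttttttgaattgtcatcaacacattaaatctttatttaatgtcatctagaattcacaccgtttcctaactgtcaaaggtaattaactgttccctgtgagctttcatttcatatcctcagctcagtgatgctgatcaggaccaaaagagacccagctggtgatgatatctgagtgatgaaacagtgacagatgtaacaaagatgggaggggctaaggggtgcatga
Ccin, chr4:43983254-43983482, plus strand: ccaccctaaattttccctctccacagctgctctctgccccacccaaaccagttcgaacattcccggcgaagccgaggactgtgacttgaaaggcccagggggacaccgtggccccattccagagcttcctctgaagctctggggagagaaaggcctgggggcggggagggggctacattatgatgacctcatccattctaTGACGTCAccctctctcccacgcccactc
Spaca1, chr4:34050192-34050315, minus strand: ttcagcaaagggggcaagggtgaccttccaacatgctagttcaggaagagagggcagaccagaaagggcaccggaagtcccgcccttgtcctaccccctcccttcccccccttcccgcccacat
Izumo1, chr7:45621561-45621810, plus strand: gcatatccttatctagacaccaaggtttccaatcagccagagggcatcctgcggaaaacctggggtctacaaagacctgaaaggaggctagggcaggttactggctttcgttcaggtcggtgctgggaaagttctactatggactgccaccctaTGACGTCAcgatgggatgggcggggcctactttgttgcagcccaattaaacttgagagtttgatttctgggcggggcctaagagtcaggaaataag

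The palindrome TGACGTCA began 50 bases before the RefSeq start of Ccin and 96 bases before that of Izumo1. Promoters were found for 38 of the 46 genes, and 250 bases before the start were searched on both strands. TGACGTCA was in 2 of the 38 (Ccin and Izumo1) and in 1.62% of the 27025 promoters of the table. Its core TGACG, which every palindrome also holds, was in 10 of the 38 and in 17.86% of all, the 10 being Acrbp, Calr3, Ccin, Gopc, Izumo1, Spaca1, Spaca3, Tmem95, Tmprss12 and Zpbp2. The RFX core GTTGCC was in 8 of 38 and 10.48% of all, the TATA box TATAAA in 3 of 38 and 12.97%, and CCAAT in 11 of 38 and 34.46%. Prss37 held none of these letters in its window, and the 2 TGACG matches of Spaca1 lay within the bases left out above. A match is a run of letters only.

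The 17 acrosomal enzymes and matrix proteins had medians of 0.058 in P2KO against WT, -0.018 in DKO against WT and -0.063 in DKO against P2KO. Of these genes 0, 1 and 0 were called by edgeR's quasi-likelihood test, with 6, 2 and 5 of the 17 at an unadjusted p under 0.05 (beside 8.57%, 14.1% and 11.8% of all tested genes) and 0, 1 and 0 called by DESeq2. The hyaluronidase Spam1 (PH-20), which disperses the cumulus matrix, had normalised read counts of 1442 and 1359.9 in WT, 1589 and 1649 in P2KO and 1422 and 1349.6 in DKO. P2KO libraries lay above all the others, with a log2 fold change of 0.21 ± 0.0698 SE against WT (adjusted p = 0.287) and a DKO against P2KO value of -0.22 (adjusted p = 0.123). Its neighbour on chromosome 6, the hyaluronidase Hyal5, had 0.15 in P2KO against WT (adjusted p = 0.521) and 0.067 in DKO against WT. The largest fall in P2KO was that of Prss21, the membrane-anchored protease testisin, with 1464 and 1568 in WT, 1399 and 1209 in P2KO and 1360.2 and 1429 in DKO. Both P2KO and both DKO libraries of Prss21 lay below both WT libraries, with -0.22 ± 0.0749 SE in P2KO against WT (adjusted p = 0.322), a difference of -0.33 without P2KO mouse 1 and -0.12 without P2KO mouse 2.

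Among the lysozyme-like proteins, Lyzl6 had 2083 and 2027 in WT, 2398 and 2241 in P2KO and 1987 and 2000.6 in DKO. The DKO against P2KO difference was -0.22 (adjusted p = 0.0989) and was called in 3 of 18 alternatives. The 3 genotypes of Lyzl6 did not overlap, with P2KO highest and DKO lowest. Spaca3, another lysozyme-like acrosomal protein, had -0.19 in the same comparison (adjusted p = 0.186), Lyzl4 had -0.14 (adjusted p = 0.404) and Lyzl1 had -0.062 (adjusted p = 0.798). Acrosin itself, Acr, stood at 139 ± 2.87 FPKM in WT, 140 ± 9.61 in P2KO and 143 ± 3.42 in DKO, and its log2 differences were 0.0041, 0.040 and 0.036 in P2KO against WT, DKO against WT and DKO against P2KO. Acrbp, which binds proacrosin, ranged between -0.084 and -0.040 over the comparisons. The zona pellucida binding proteins Zpbp and Zpbp2 had 0.054 and -0.14 in P2KO against WT and -0.0082 and -0.13 in DKO against WT (adjusted p = 0.976 and 0.278 for the latter pair). The remaining enzymes and matrix proteins, Acrv1, Spaca7, Spesp1, Prss55 and Tmprss12, had values between -0.14 and 0.15, and none was called.

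Sperm-egg binding and fusion genes numbered 11, with medians of 0.056, -0.0078 and -0.091 in the 3 comparisons, and 0 of them were called in any of these by edgeR's quasi-likelihood test or by DESeq2. At an unadjusted p under 0.05 there were 3 in P2KO against WT (2 higher and 1 lower), 3 in DKO against WT (all lower) and 2 in DKO against P2KO (both lower), beside the same 8.57%, 14.1% and 11.8% of all tested genes. Izumo1, the sperm ligand of the egg receptor Juno, had normalised read counts of 2282 and 2191 in WT, 2569 and 2149 in P2KO and 2202 and 2165 in DKO. All 3 genotypes overlapped for Izumo1, and the 95% interval of DKO against WT ran from -0.18 to 0.11. Its paralogues Izumo2, Izumo3 and Izumo4 had -0.16, -0.0078 and -0.13 in DKO against WT, with adjusted p of 0.228, 0.977 and 0.334.

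Spaca6 had the largest log2 difference of any listed gene in the 3 comparisons. Its normalised read counts were 842 and 953 in WT, 1099 and 928 in P2KO and 787 and 867 in DKO. DKO lay below P2KO and overlapped WT, and P2KO mouse 1 lay highest. DKO against P2KO gave -0.30 ± 0.0869 SE (95% interval -0.47 to -0.12, adjusted p = 0.0901), and without P2KO mouse 1 the difference was -0.17. P2KO against WT gave 0.18 ± 0.0863 SE (adjusted p = 0.581), which was 0.047 without P2KO mouse 1 and 0.29 without P2KO mouse 2. The DKO against P2KO difference was called in 6 of 17 alternatives, among them edgeR on the 2 genotypes alone (adjusted p = 0.0165), leaving out P2KO mouse 2 (0.0477), and leaving out WT mouse 1 or WT mouse 2 (adjusted p = 0.0142 and 0.0116).

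In DKO against WT Spaca6 had -0.12 (adjusted p = 0.601). Tmem95, which is needed for fusion, had -0.077 in P2KO against WT and 0.0016 in DKO against WT. Dcst1 and Dcst2, a pair of membrane proteins that act together in fusion, had 0.13 and 0.066 in P2KO against WT and 0.040 and 0.011 in DKO against WT. Tmem190, an inner acrosomal membrane protein, had -0.19 in DKO against WT (adjusted p = 0.247) and -0.25 in DKO against P2KO (adjusted p = 0.143), and the first ran from -0.29 without DKO mouse 1 to -0.10 without DKO mouse 2. Spaca4, a membrane-anchored protein of zona binding, had 0.14, 0.045 and -0.10 in the 3 comparisons. Crisp2 had -0.0089, 0.047 and 0.056, each with an SE of 0.0534, and adjusted p of 0.987, 0.779 and 0.748. Its normalised read counts were 39527 and 41554 in WT, 38581 and 42005 in P2KO and 40747 and 43009 in DKO, and the genotypes overlapped.

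The 9 genes of the acrosomal membrane and of biogenesis had medians of 0.011 in P2KO against WT, 0.093 in DKO against WT and 0.084 in DKO against P2KO, and the numbers called by edgeR's quasi-likelihood test were 0, 0 and 1. At an unadjusted p under 0.05 there were 2, 3 and 5 of the 9, beside 8.57%, 14.1% and 11.8% of all tested genes, and DESeq2 on the 6 libraries called 0, 0 and 1, the last being Spata16 and not Spaca1. Spata16, a Golgi protein whose loss is known to cause round-headed sperm, had normalised read counts of 8105 and 8022 in WT, 7464 and 7681 in P2KO and 8887 and 8621 in DKO. The 3 genotypes did not overlap, with P2KO lowest and DKO highest. DKO against P2KO gave 0.21 ± 0.0556 SE (adjusted p = 0.0516), which passed in 10 of 18 alternatives, and DKO against WT gave 0.12 (adjusted p = 0.320).

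Pick1 had normalised read counts of 407 and 402 in WT, 432 and 400.3 in P2KO and 342 and 345 in DKO. Both DKO libraries were lowest, and WT and P2KO overlapped. DKO against WT gave -0.24 ± 0.106 SE (95% interval -0.45 to -0.021, adjusted p = 0.289) and DKO against P2KO -0.28 ± 0.105 SE (adjusted p = 0.231). Its exons overlap those of Gm49486 on the same strand, and reads that lie in both are assigned to neither by STAR's gene counts.

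Atp8b3 had 72041 and 60831 in WT, 66122 and 70635 in P2KO and 75137 and 73362 in DKO, a rise of 0.16 ± 0.0578 SE in DKO against WT that did not pass (adjusted p = 0.144). It passed in 2 of 18 alternatives, 1 without the count filter and 1 without WT mouse 1, when the difference was 0.28. Without WT mouse 2 it was 0.043. Dpy19l2, which anchors the acrosome to the nuclear envelope, and Sppl2c, a spermatid intramembrane protease, had 0.11 and 0.092 in DKO against WT (adjusted p = 0.422 and 0.485). Gopc had 756 and 751 in WT, 750.4 and 769 in P2KO and 853 and 755 in DKO, which overlapped, with 0.095 ± 0.0839 SE in DKO against WT (adjusted p = 0.690). Spaca9 and equatorin (Eqtn) had 0.019 and 0.084.

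The 7 genes of the perinuclear theca and head cytoskeleton had medians of -0.046, -0.088 and -0.0054. Besides Ccin none was called by edgeR's quasi-likelihood test or by DESeq2 on the 6 libraries, and the counts at an unadjusted p under 0.05 were 0, 2 and 3 of the 7, beside 8.57%, 14.1% and 11.8% of all tested genes. The cylicin Cylc2, a basic protein of the calyx, had normalised read counts of 9997 and 10682 in WT, 10049 and 9983 in P2KO and 9063 and 9285 in DKO. Both DKO libraries were lowest, at -0.17 ± 0.0558 SE against WT (adjusted p = 0.0886) and -0.13 against P2KO (adjusted p = 0.339), and the first passed in 3 of 17 alternatives. Its X-linked paralogue Cylc1 had -0.10 against WT (adjusted p = 0.666). The actin-like genes Actl7a, Actl7b and Actl9 had 0.054, -0.088 and 0.047 in DKO against WT (adjusted p = 0.747, 0.540 and 0.797). Actl7b had 18185 and 16859.9 in WT, 19030.2 and 17386 in P2KO and 17025 and 15930.2 in DKO, with -0.14 ± 0.0574 SE in DKO against P2KO (adjusted p = 0.270). Capza3, a capping protein subunit of spermatids, had -0.092 (adjusted p = 0.561).

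The endoplasmic reticulum chaperones Clgn (calmegin) and Calr3 (calsperin), through which fertilins and ADAM3 are folded, varied little. Clgn had normalised read counts of 20361 and 19731 in WT, 20022 and 19775 in P2KO and 20630.0 and 20499 in DKO, and its log2 differences were -0.011, 0.037 and 0.047. Calr3 had -0.050, -0.039 and 0.011. Neither was called by edgeR or DESeq2, and 0 of the 2 had an unadjusted p under 0.05, beside 8.57%, 14.1% and 11.8% of all tested genes. Pdilt, a further chaperone of this pathway whose symbol resembles the unmatched Pdilp, is outside the list and was looked up after its values were seen. It had 0.15, 0.14 and -0.012 in the 3 comparisons, with adjusted p of 0.437, 0.259 and 0.966.

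Of the 46 genes, 7 lie on chromosome 4, which also carries Padi2 and Padi4. They are Spaca1, Ccin, Cylc2, Actl7a, Actl7b, Izumo3 and Eqtn, at 46 to 106.9 Mb from the start of Padi2 on the same side. In that span of 320 tested genes, 0 were called in P2KO against WT, 6 in DKO against WT and 2 in DKO against P2KO. Of the 792 tested genes of the chromosome nearer to Padi2 or beyond it, 37, 124 and 63 were called. Over all tested genes 0.198%, 2.06% and 0.607% were called higher and 0.14%, 1.16% and 0.598% lower in the same comparisons. The nearer stretch was defined to begin past the listed gene closest to Padi2, so the listed genes lie outside it by construction. Ccin and Spaca1, each called in a comparison above, are among the 7. Prss37, on chromosome 6, kept its call in DKO against WT when only genes of the other chromosomes were fitted. The part of distance from Padi2 in these values was not tested.

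**Figure D5:**
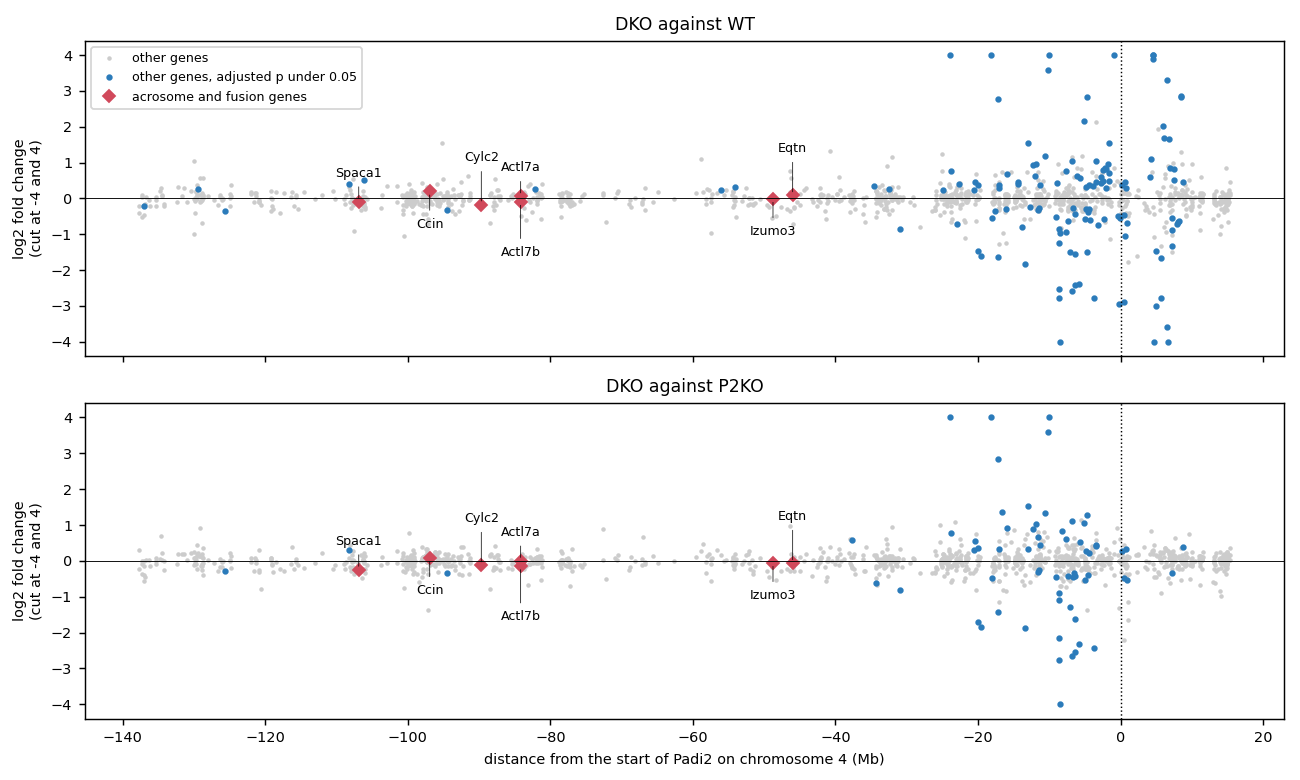
Log2 fold change (cut at -4 and 4) of tested genes of chromosome 4 against distance from the start of Padi2 in Mb, for DKO against WT (top) and DKO against P2KO (bottom); diamonds are the 7 acrosome and fusion genes, blue points other genes with an adjusted p under 0.05. The diamonds lie 46 to 106.9 Mb from Padi2, and most blue points lie nearer to it.

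Exons of 10 listed genes overlap those of another gene, on the opposite strand for 7 and on the same strand for 4. Actl7b had between 15026 and 21455 reads per library, while Gm26657, which lies opposite it over 1308 of its 1439 nucleotides, had 27 to 47. Capza3 and Plcz1 on opposite strands had 3576 to 4729 and 6138 to 7966 reads. Pick1 and Acrbp share exons on their own strand with Gm49486 and Gm44597, which had 0 to 3 and 0 to 1 reads. Izumo1 overlaps Rasip1 (66 to 112 reads) on its own strand.

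Genes of the same pathways outside the list were followed through 4 further lists. Their counts at an unadjusted p under 0.05 stand beside 8.57%, 14.1% and 11.8% of all tested genes in P2KO against WT, DKO against WT and DKO against P2KO. Their called counts stand beside 0.198%, 2.06% and 0.607% of all tested genes higher and 0.14%, 1.16% and 0.598% lower. None of 17 ADAM fertilins and sperm migration factors, among them Adam2 and Adam3, was called in any comparison by edgeR's quasi-likelihood test or by DESeq2, with 2, 3 and 5 at an unadjusted p under 0.05 in the 3 comparisons in that order. Of 18 tested genes of the exocytosis machinery, 0 were called by edgeR's quasi-likelihood test or DESeq2, which gave an adjusted p for 15 of the 18 in both comparisons of DKO, with 0, 3 and 1 at an unadjusted p under 0.05 in edgeR. Of 20 other acrosomal proteins, 1 was higher in DKO than in WT by both tools, and in P2KO against WT and DKO against P2KO both tools called 0. At an unadjusted p under 0.05 there were 3 higher and 0 lower in P2KO against WT, 2 higher and 2 lower in DKO against WT, and 2 higher and 3 lower in DKO against P2KO. Of 26 genes of acrosome and sperm head shaping, 2 were higher in DKO against both WT and P2KO by edgeR, DESeq2 called 2 and 1 genes, and in P2KO against WT both tools called 0. Of these 26 the unadjusted test gave 1 higher and 1 lower in P2KO against WT, 9 higher and 0 lower in DKO against WT, and 7 higher and 1 lower in DKO against P2KO.

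Zan, which encodes the zona-binding protein zonadhesin, had normalised read counts of 1228 and 987 in WT, 1267 and 1420.1 in P2KO and 1509 and 1679 in DKO. The DKO libraries were highest and those of WT lowest. DKO against WT gave 0.53 ± 0.0842 SE (adjusted p = 6.97e-05), and P2KO against WT gave 0.28 (adjusted p = 0.223). Merged exons of Zan span 19813 nucleotides, and with an offset for gene length the DKO difference was 0.34 (adjusted p = 0.00333). Over all tested genes the log2 fold change of DKO against WT was higher in longer genes (Spearman's rho 0.292 across genes), while over the 46 listed genes, whose median length was 1936 nucleotides against 3330 for all, rho was 0.0696. These values describe genes within the same libraries, which are not independent replicates, and the part of length in the Zan difference beyond the offset was not tested.

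Smap2, an Arf GTPase-activating protein of vesicle traffic, had 857 and 816 in WT, 825 and 872 in P2KO and 1092 and 1069 in DKO. DKO libraries lay above all the others, at 0.37 ± 0.0779 SE against WT (adjusted p = 0.00293) and 0.35 ± 0.0775 SE against P2KO (adjusted p = 0.0108). Smap2 lies on chromosome 4 within the stretch of many calls near Padi2. Its call against WT was lost without DKO mouse 1, and that against P2KO without P2KO mouse 1, DKO mouse 1 or DKO mouse 2. Iqcn, a sperm head protein of chromosome 8, had 1361 and 1059.9 in WT, 1229 and 1290.3 in P2KO and 1579.6 and 1596 in DKO. Iqcn was at 0.40 ± 0.0823 SE against WT (adjusted p = 0.00249) and 0.33 ± 0.0817 SE against P2KO (adjusted p = 0.027), and its call against WT was lost without WT mouse 2, when the difference was 0.22, or without DKO mouse 2. The call against P2KO was lost when any 1 of the P2KO or DKO mice was left out, with the replicate block and with DESeq2 on the 6 libraries.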

How the data were processed

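Testis RNA was poly(A) selected and made into directional libraries (2 mice for each of WT, P2KO and DKO). The authors trimmed reads with Trim Galore, used STAR for alignment to GRCm38, and deposited raw read counts per Ensembl gene, with no normalization; tool versions are not given in the sources used here, nor which strand column of STAR was taken. All 55536 identifiers matched GENCODE M21, and every sample column was used. The members and lists were chosen with earlier results of these data known.

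The tests used edgeR 4.0.16 under R 4.3.3. Genes were filtered with filterByExpr (minimum count 10), scaled by TMM and fitted with glmQLFit over all 6 libraries with a genotype term (3 residual degrees of freedom, prior count 0.125). Each pair of genotypes was tested with glmQLFTest, with Benjamini-Hochberg adjustment over all 20744 tested genes and a threshold of 0.05. SE is the absolute log2 fold change over the square root of F, and intervals are 95%. Normalised counts are counts over the TMM-scaled library size relative to the geometric mean. With 2 mice per genotype, exact permutation of 1 gene's values cannot reach 0.05. The code was run on simulated data with the same spread for every gene and larger changes than those of the listed genes. That run does not show how the intervals behave at the sizes seen here or with spreads that differ by gene.

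Alternatives were RLE and upper-quartile scaling, no count filter, a mean of at least 50 counts, DESeq2 1.42.0, fits on 2 genotypes, prior count 2, a replicate block, a length offset (lowess span 0.3), both together, genes off chromosome 4, and leaving out each library. Full statistics are given for members called in any comparison, for the 3 largest fold changes of each comparison and for the 3 highest and 3 lowest levels per length. Other members are given by role. Beyond the list are Padi2, Padi4, Pdilt and called genes of the wider lists and of the germ cell, Leydig cell and Sertoli cell markers. Promoters are those of RefSeq. Exon overlaps were taken from GENCODE coordinates, and near-identical transcripts of other genes were searched with BLAST 2.17.0, which found them for 5 members.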

Additional observations from a re-analysis of the deposited data

How the results depend on the processing

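Members called in P2KO against WT numbered 0 in each alternative that was run. In DKO against WT the count of 2 became 4 without the count filter, 1 with either tool on the 2 genotypes, 1 with the replicate block and 1 off chromosome 4, and ran from 0 to 5 when single libraries were left out (0 without DKO mouse 1 or DKO mouse 2, and 5 without WT mouse 1). In DKO against P2KO the count of 1 became 2 with RLE size factors or a mean of at least 50 counts, 3 without the filter, with DESeq2 on the 2 genotypes or with the length offset, 6 with edgeR on the 2 genotypes, 0 with the replicate block, 2 with block and length offset and 0 off chromosome 4, and ran from 0 to 6 when single libraries were left out. DESeq2 on the 6 libraries also gave 1, but Spata16 in place of Spaca1, and the calls with the length offset, with or without the block, did not include Spaca1. Upper-quartile scaling kept 2 calls in DKO against WT, with Cylc2 (lower) in place of Ccin. Genes off chromosome 4 exclude Ccin and Spaca1 by construction. The median of the members in DKO against WT was -0.031 with upper-quartile scaling and 0.032 with the length offset, and in DKO against P2KO it was -0.0020 with the length offset. With single libraries left out the median ran from 0.020 to 0.041 in P2KO against WT, from -0.036 to 0.0060 in DKO against WT and from -0.047 to -0.015 in DKO against P2KO; between mice its SD was 0.0139. Over all tested genes, 70 calls in P2KO against WT became 140 without the filter, 41 with DESeq2, 40 with DESeq2 on the 2 genotypes, 45 with the replicate block and 24 off chromosome 4 (53 to 311 leaving out libraries). The 668 calls in DKO against WT became 403 with DESeq2 and 296 with DESeq2 on the 2 genotypes (250 to 1065). The 250 calls in DKO against P2KO became 162 with DESeq2 and 579 with edgeR on the 2 genotypes (108 to 622). The causes of the other shifts were not tested.

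The replicate numbers did not pair the mice: deviations of same-numbered libraries correlated at -0.0572, 0.0574 and -0.0502 in the 3 comparisons. With the replicate block Ccin in DKO against WT had an adjusted p of 0.0621 and Spaca1 in DKO against P2KO 0.0712. Of the 138 values (46 members in 3 comparisons), 91 kept their direction in every alternative that gave a value, among them Prss37 and Ccin in DKO against WT and Spaca1 in DKO against P2KO. The others turned sign in at least 1 alternative. Largest among these by size was Izumo1 in DKO against P2KO (-0.11, and 0.023 without P2KO mouse 1), followed by Gopc in DKO against WT (0.095, and -0.012 with length offset and block). The 95% intervals had a median full width of 0.261 to 0.262 on the log2 scale, which limits how small a difference could be told from 0.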

Other observations

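Other marker genes of the cells that make the acrosome were measured in the same fits. Of 13 round spermatid markers, 4 of which are acrosome and fusion genes described above, the medians were 0.079 in P2KO against WT, -0.073 in DKO against WT and -0.11 in DKO against P2KO. At an unadjusted p under 0.05 there were 3 higher and 1 lower, 0 higher and 3 lower, and 0 higher and 6 lower, beside 8.57%, 14.1% and 11.8% of all tested genes. Called by edgeR's quasi-likelihood test were 0, 1 and 2, all lower, beside 0.14%, 1.16% and 0.598% of all tested genes called lower and 0.198%, 2.06% and 0.607% called higher. DESeq2 on the 6 libraries called 0, 1 and 1. Catsper4, a subunit of the sperm calcium channel and the round spermatid marker called in both comparisons of DKO, had normalised read counts of 2897 and 2845 in WT, 3363 and 3073 in P2KO and 2376 and 2363 in DKO. DKO libraries were lowest and P2KO libraries highest, with -0.28 ± 0.0639 SE against WT (adjusted p = 0.00748) and -0.44 ± 0.0636 SE against P2KO (adjusted p = 2.53e-05). It lies on chromosome 4, in the stretch near Padi2. Its call against WT was lost without DKO mouse 1 or DKO mouse 2. The 11 elongating spermatid markers had medians of -0.081, -0.027 and 0.054 in the 3 comparisons. At an unadjusted p under 0.05 there were 0 higher and 4 lower, 0 higher and 4 lower, and 2 higher and 0 lower. Of these 11 edgeR's quasi-likelihood test called 1, 2 and 0, all lower, and DESeq2 on the 6 libraries called 1, 0 and 0, beside the same shares of all tested genes. Among those of nuclear packing, the transition protein gene Tnp2 was at -0.29 ± 0.0495 SE in P2KO against WT (adjusted p = 0.000762). Without P2KO mouse 1 it was not called, and in DKO against WT it was not called either (-0.14, adjusted p = 0.143). Tnp1 and the protamine Prm1 were at -0.25 and -0.22 in DKO against WT (adjusted p = 0.013 and 0.0302), and neither was called with the length offset (adjusted p = 0.194 and 0.325), with DESeq2 on the 6 libraries, without DKO mouse 1 or without DKO mouse 2, nor Prm1 without WT mouse 2. The 12 spermatocyte markers had medians of -0.015, -0.015 and 0.0026. At an unadjusted p under 0.05 there were 0 higher and 0 lower, 1 and 1, and 1 and 1, and edgeR called 0, 2 and 0 and DESeq2 0, 1 and 1. In DKO against WT, Ybx2, an RNA-binding protein of germ cells, was at -0.34 (adjusted p = 0.000554). It was at -0.19 without WT mouse 1, and was not called with DESeq2 or without DKO mouse 2. Sycp2, of the synaptonemal complex, was at 0.23 (adjusted p = 0.0123) and was not called without DKO mouse 2. The summed level of 10 Leydig cell markers was 860 and 850 CPM in WT, 949 and 861 in P2KO and 1083 and 912 in DKO. Of these markers 5 were called in DKO against WT (beside 2.06% higher and 1.16% lower of all tested genes) in opposite directions: the steroidogenic genes Star (0.51), Hsd3b6 (0.41), Cyp17a1 (0.31) and Cyp11a1 (0.28) were higher and Hsd3b1 (-0.46) was lower, and without DKO mouse 1 only Star of these 5 was called, with Cyp17a1 at 0.076 and Cyp11a1 at 0.074. With DESeq2 on the 6 libraries 2 of the list were called, Hsd3b1 and Hsd3b6, and Star, Cyp17a1 and Cyp11a1 were not. In DKO against P2KO edgeR called 1 of the 10, Hsd3b6 at 0.63 (adjusted p = 2.93e-07). Hsd3b1 and Hsd3b6 are close paralogues whose reads the counting could mix. Of 11 tested Sertoli cell markers, edgeR called 1 in DKO against P2KO, Aard at -0.36 (adjusted p = 0.00391), beside 0.607% higher and 0.598% lower of all tested genes. The median of these 11 was -0.15, with 0 higher and 3 lower at an unadjusted p under 0.05. The part of these cell types in the values above was not tested.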
